A study of Mus musculus with 2 samples.

Results

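Plasmacytoid dendritic cells (pDC) of tumour-draining inguinal lymph nodes were described in single-cell RNA libraries of wild-type (WT) mice and of mice lacking Atg5 in lymphatic endothelial cells (Atg5 LEC-KO). The cells were chosen by counts of molecules, each tagged by a unique molecular identifier (UMI): a barcode needed at least 1200 UMIs, at least 200 genes and at most 25% mitochondrial UMIs, then at least 2 UMIs of Siglech, at most 1 UMI of Cd79a plus Cd3e, and none of the endothelial genes Prox1 and Egfl7. This gave 54 cells of 8091 past the first filters, with 27 of 3893 for WT and 27 of 4198 for Atg5 LEC-KO. Siglech, the pDC surface lectin, chose the cells, so its level is given as a description. The other immune cells, with which they are compared, were the 2421 and 3330 remaining cells with a UMI of Ptprc, the gene of the pan-leukocyte protein CD45.

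Per the labels, each library pooled 2 sorts of viable Ter119-negative cells, CD45+ CD31- immune cells and CD31+ CD45- endothelial cells, from 13 WT nodes and from 9 nodes of Atg5 LEC-KO animals. Tumour type, animal age, the driver of the deletion and the number of animals behind the nodes are not given in the sources used here. With 1 library per genotype no difference has a replicate check, no p-value is given, and every 95% interval below covers counting error only. Atg5, a core autophagy gene, held 27 UMIs in the pDC of the WT library and 26 in those of the other library, which checks nothing about a deletion aimed at another cell type. The pDC held a median of 8207 UMIs (2545 to 16017) in the WT library and 7704 (1256 to 10906) in the Atg5 LEC-KO library, against medians of 3085 and 3222 in other immune cells. Both libraries mixed the sexes unequally: by Xist and 4 Y-linked genes, 19 pDC were male and 4 female in the WT library, and 11 were male and 12 female in the other. Of all cells, 14 barcodes occurred in both libraries, and none of them was a pDC.

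Plasmacytoid dendritic cells are the immune system's specialised producers of type I interferon. They sense nucleic acids in endosomes through TLR7 and TLR9, which signal through MyD88 and the transcription factor IRF7, and their identity is held by the E protein TCF4 with partners such as SPIB, RUNX2 and IRF8. In the resting state they present antigen less than conventional dendritic cells (cDC), carry an extended secretory apparatus, and enter lymph nodes from the blood.

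Most of the chosen cells carried many of the pDC markers, and 8 carried few. Of 12 further markers (Cox6a2, Klra17, Tcf4, Bst2, Ccr9, Ly6d, Runx2, Spib, Irf8, Pacsin1, Klk1 and Cd300c), 22 of the 27 WT cells held a UMI of at least 6, with a median of 10.5, and so did 24 of the 27 Atg5 LEC-KO cells, with a median of 11. The remaining 5 WT cells held 3 to 5 of these markers and 2, 2, 2, 2 and 8 UMIs of Siglech, and the remaining 3 Atg5 LEC-KO cells held 1 to 3 markers and 2, 2 and 14 UMIs of Siglech. These 8 cells had no UMI of Cox6a2, a cytochrome oxidase subunit that marks pDC among immune cells, or of Ly6c2, a pDC and monocyte surface protein. By these genes they go against the pDC label, while some of the 12 markers were present. Tcf4 had a UMI in 4 of the 5 WT cells, with a median of 15 UMIs over the 5, against 18.5 in the other 22. Klra17 reached 12 UMIs and Ccr9 10 in single cells of these 5. The 3 Atg5 LEC-KO cells had no UMI of Tcf4, while Klra17 reached 7 and Ccr9 3. The 5 WT cells held 4 to 8 UMIs of Flt3, the dendritic cell growth factor receptor, with a median of 6. The other 22 WT cells held 0 to 9 with a median of 2.5, so the ranges overlapped, and the 3 Atg5 LEC-KO cells held 0. The 5 WT cells held 32.3 to 83.3 MHC class II UMIs per 1000 UMIs, against 3.08 to 22.9 in the other 22 WT cells. Lyz2, the lysozyme gene of monocytes and macrophages, reached 71 UMIs in a cell of these 5 and 156 and 104 UMIs in a pair of the 3 Atg5 LEC-KO cells, and had no UMI in the 46 cells with at least 6 markers. List results are therefore given with and without the 8 cells, as are the genes for which leaving them out changed the picture.

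**Figure D1:**
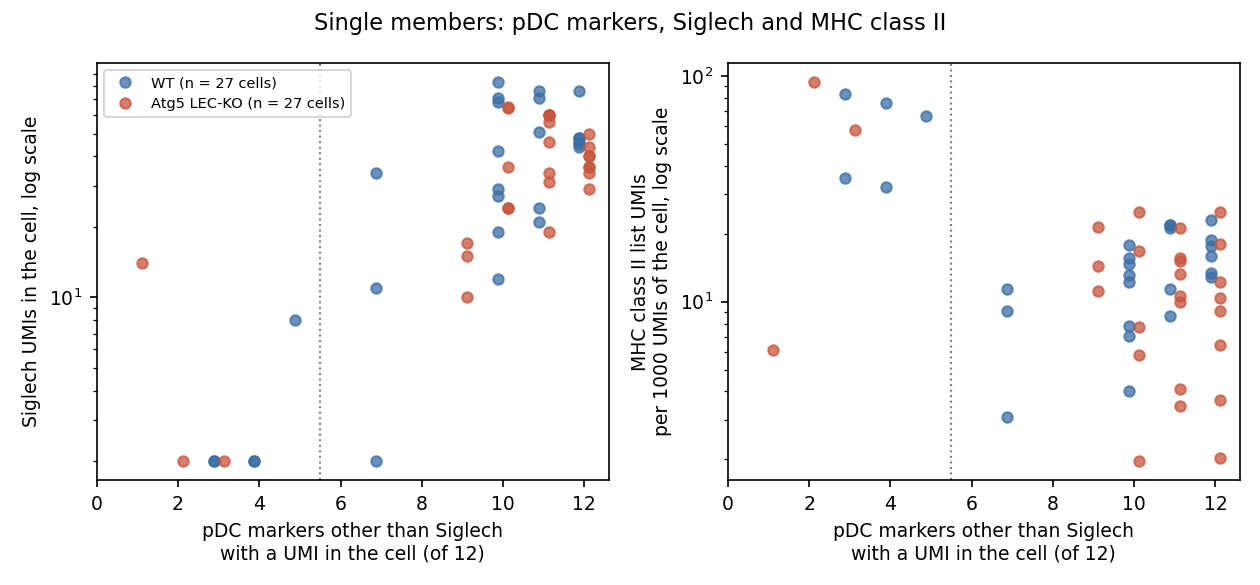
Each point is a chosen cell of the WT library (blue, n = 27) or of the Atg5 LEC-KO library (red, n = 27), with the number of the 12 other pDC markers that had a UMI on the horizontal axis. The vertical log axes give its Siglech UMIs (left) and its MHC class II UMIs per 1000 UMIs (right). The dotted line separates the 46 cells with at least 6 markers from the 8 cells below, of which 7 lie above all others in MHC class II.

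Just outside the rule, 2 WT and 2 Atg5 LEC-KO cells held 1 UMI of Siglech and 0 to 2 of the 12 markers. Just inside, 5 WT cells and 2 Atg5 LEC-KO cells held exactly 2 UMIs, with 2 to 7 markers. A cell of the Atg5 LEC-KO library with 39 Siglech UMIs and 11 markers was left out because it also held lymphocyte and endothelial genes. Scrublet, a caller of doublets, marked 28 cells (0.719%) of the WT library and 31 (0.738%) of the other, and none of them was a chosen cell.

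The pDC programme stood far above its level in other immune cells in both libraries. Siglech lay at 4579 CPM (UMIs per 1000000 UMIs of the group; 95% interval 4295-4878) in the WT pDC and at 5498 (5153-5859) in the Atg5 LEC-KO pDC, against 0.860 and 3.48 CPM in other immune cells. Cox6a2 lay at 565 and 864 CPM, against 0.491 and 0.765. Klra17, a lectin-like receptor of the Ly49 family, lay at 442 and 731 CPM, against 5.03 and 2.80. Tcf4, the E protein that holds pDC identity, lay at 2356 and 3213 CPM, 8.71-fold and 14.6-fold above other immune cells, in which B cells and other lymphocytes express it too. Cells with a UMI of Tcf4 numbered 26 of 27 and 23 of 27.

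The whole identity list gave the same picture. Of 42 identity genes with at least 20 UMIs in the pDC of each library, 38 were at least 1.5-fold above other immune cells in both, against 28.7% of all 1691 such genes. 24 of the 42 were at least 10-fold higher, against 5.09% of all genes. Since Siglech chose the cells and the list was assembled from known pDC genes, these shares describe the cells and test nothing. With only the cells that carried at least 6 markers, 38 identity genes again passed 1.5-fold.

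**Figure D2:**
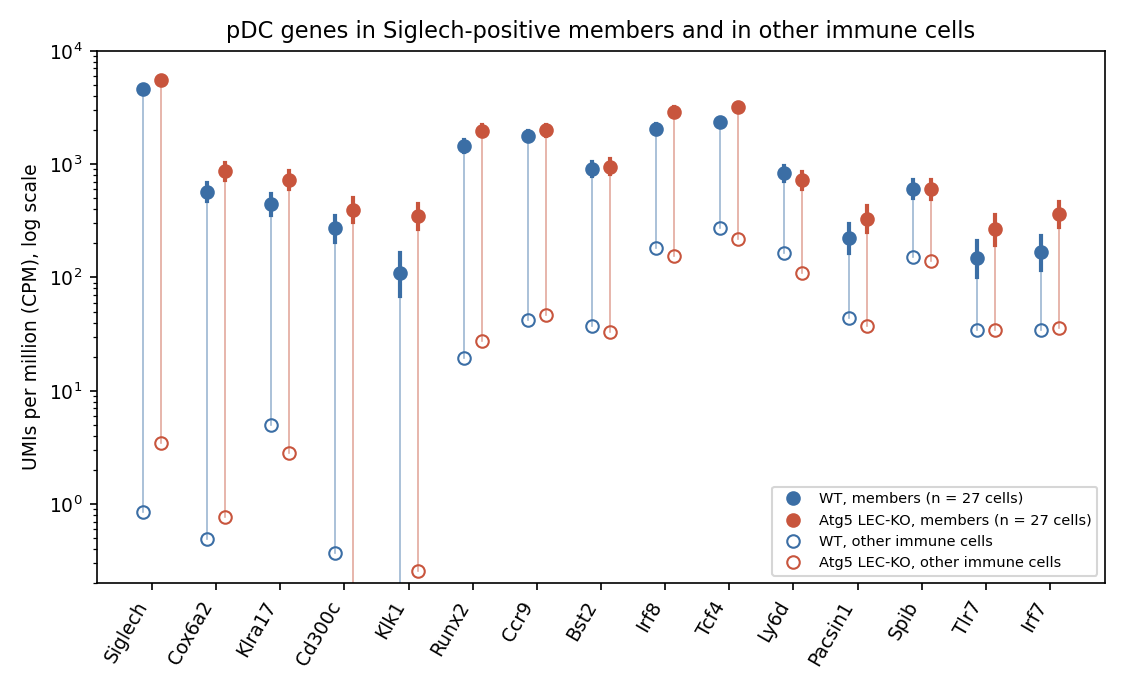
The level of 15 genes is shown in CPM on a log axis, in the chosen cells (filled, with 95% counting intervals as thick bars) and in the other immune cells (open), for the WT library in blue and the Atg5 LEC-KO library in red. Klk1 in WT and Cd300c in Atg5 LEC-KO other immune cells lie below the axis, and every filled point lies above its open point.

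Among the genes most restricted to pDC, Cd300c, an activating receptor, was 735-fold (239-3670) and 2321-fold (618-19555) above other immune cells, where it held only 3 and 2 UMIs. Smim5, a small membrane protein, was 748-fold (244-3732) and 728-fold (228-3717) higher. Klk1, a tissue kallikrein protease, held 23 and 60 UMIs in the pDC. Other immune cells of the WT library held 0 UMIs of Klk1, so that it was at least 297-fold higher there by a floor of 3 counts over the group, and 1365-fold (445-6807) higher in the Atg5 LEC-KO library, where they held 3. The rule also named Gm34680, Pdzd4, Eldr, Atp2a1, Cds1, Grm8 and Chdh, none of them a standard pDC marker, and the inhibitory collagen receptor Lair1, which was 114-fold and 74.4-fold higher. Dntt, the terminal transferase of lymphoid progenitors, held 26 and 51 UMIs and was 83.8-fold and 91.6-fold higher.

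Transcription factors and receptors of the pDC lineage followed. Runx2, which pDC need to leave the bone marrow, was 75.2-fold and 72.1-fold above other immune cells. Ccr9, the homing receptor for the chemokine CCL25, was 42.0-fold and 42.2-fold higher, and Bst2, the interferon-inducible membrane protein tetherin, 24.5-fold and 28.6-fold. Irf8 was 11.3-fold and 18.8-fold higher, and Spib 4.02-fold and 4.34-fold. Of 21 inhibitory and ITAM-coupled receptor genes, 14 were at least 1.5-fold and 12 at least 10-fold above other immune cells in both libraries. Of all 1691 genes so compared, 28.7% and 5.09% were. Tyrobp, the adaptor DAP12 that pairs with SIGLEC-H, was 33.3-fold and 31.9-fold higher, and Clec10a, a lectin also found on cDC, 69.0-fold and 116-fold.

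The sensing and secretory machinery also stood higher. Tlr7 held 31 and 46 UMIs and was 4.31-fold and 7.81-fold above other immune cells. Tlr9 held only 9 and 3 UMIs, too few to compare the libraries. Unc93b1, which carries the endosomal receptors from the endoplasmic reticulum, was 3.58-fold and 4.51-fold higher, and the endosomal transporter Slc15a4 2.99-fold and 2.65-fold. Pld4, an endolysosomal nuclease, was 12.4-fold and 16.8-fold higher. Of 12 endosomal sensing genes, 10 were at least 1.5-fold higher in both libraries, as were 16 of 24 genes of the secretory pathway and unfolded protein response, against the 28.7% of all genes. Among the latter, Herpud1, of endoplasmic reticulum-associated degradation, was 4.03-fold and 4.79-fold higher, and Xbp1, the factor that drives secretory cells, 6.67-fold and 5.93-fold.

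The promoters of Siglech and Ccr9 are shown because each holds the E-box CAGGTG, the class of site that E proteins such as TCF4 recognise. The sequences are those of RefSeq on GRCm38.p6, from 250 bases before to 50 bases after the gene's start, with the match on either strand in capitals.
Siglech, chr7:55767934-55768233, + strand: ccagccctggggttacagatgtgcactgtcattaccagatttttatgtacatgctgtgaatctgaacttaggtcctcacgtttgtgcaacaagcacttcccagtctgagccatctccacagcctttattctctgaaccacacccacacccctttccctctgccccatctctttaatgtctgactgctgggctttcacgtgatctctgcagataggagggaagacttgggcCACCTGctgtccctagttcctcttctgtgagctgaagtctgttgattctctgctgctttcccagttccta
Ccr9, chr9:123766961-123767260, + strand: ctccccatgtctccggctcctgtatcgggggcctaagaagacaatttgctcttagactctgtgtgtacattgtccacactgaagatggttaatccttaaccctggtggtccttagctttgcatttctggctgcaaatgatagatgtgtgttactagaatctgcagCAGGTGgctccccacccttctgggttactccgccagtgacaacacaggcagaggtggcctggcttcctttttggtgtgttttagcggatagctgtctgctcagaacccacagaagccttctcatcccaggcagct
The match in the Siglech window reads CACCTG, the reverse complement, and begins 20 bases before the start, and that of Ccr9 begins 85 bases before it. The letters CAGGTG occur on either strand in the windows of 12 of the 37 identity genes with an entry (32.4%), against 22.6% of 27025 genes, so a match is common and says nothing of binding.

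The pDC varied among themselves. Siglech ranged from 2 to 83 UMIs per cell with a median of 34 in the WT library and from 2 to 65 with a median of 36 in the other. In the cells with at least 6 markers its medians were 44.5 and 36, so the order of the libraries turned with the 8 cells. Ccr9 ranged from 0 to 41 and from 0 to 37 UMIs, and was seen in 23 and 25 cells. Ly6c2 was seen in 21 and 23 cells, all of them among the 22 and 24 with at least 6 markers, with up to 80 and 63 UMIs. Cd4 had a UMI in 18 and 19 cells and Cd8a, which marks a pDC subset, in 11 and 7 cells. Ighm, the mu heavy-chain gene that pDC transcribe without being B cells, held 239 and 224 UMIs in 27 and 24 cells. The B cell marker list, which does not contain Ighm, held 17 and 24 UMIs in all pDC, or 80.8 and 139 CPM, against 6873 and 5370 CPM in other immune cells.

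Among immune cells, the pDC share was 1.10% for WT (27 of 2448, Clopper-Pearson interval 0.728-1.60) and 0.804% for Atg5 LEC-KO (27 of 3357, 0.531-1.17). The ratio of Atg5 LEC-KO over WT was 0.729, and its interval of 0.412-1.29 included 1, so that no difference in share was detectable at this number of cells. The ratio was 0.627 among male cells, with shares of 1.62% and 1.01%, and 0.935 among female cells, with 1.40% and 1.31%. With the cells of at least 6 markers alone it was 0.795. Fewer pDC and more of the other immune cells cannot be told apart in such shares.

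Interferon genes could hardly be assessed in these pDC. Of 20 type I and III interferon genes, only Ifne and Ifnz could be matched. Both had 0 UMIs in the pDC of either library, which allows up to 14.3 CPM and 17.4 CPM or a UMI in up to 11.1% of cells. The others, with Ifnb1 and all Ifna genes among them, were not analysed here, and no statement is made on their level. Il12b and Il6, cytokines of activated dendritic cells, had 0 UMIs in either library. Ifit3, an abundant interferon-induced gene, also had 0 UMIs in all 54 cells, against 35.0 and 31.3 CPM in other immune cells. Ifit1 held 0 and 1 UMI in the pDC, Isg15 2 and 5, Rsad2 2 and 13, and Oasl1 3 and 13. Ifit2 held 5 and 6 UMIs, or 23.8 and 34.8 CPM, against 41.4 and 43.5 CPM in other immune cells.

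Other interferon-stimulated genes stood higher in the pDC of the Atg5 LEC-KO library. Of 3908 genes with at least 20 UMIs over the pDC of both libraries, 609 (15.6%) were at least 1.5-fold higher and 666 (17.0%) at least 1.5-fold lower there, and the median log2 ratio was 0.01. Among the 52 interferon-stimulated genes that met this minimum, of 115 listed, 43 lay higher and 9 lower, 28 were at least 1.5-fold higher (53.8%) and 2 at least 1.5-fold lower, and the median log2 ratio was 0.81. In other immune cells of the same libraries the same 52 genes had a median of 0.01, with 1 gene at least 1.5-fold higher. Of all genes measured in the pDC, 27 of 3883 passed that fold upward in other immune cells, so such calls were rare there for any gene. In B cells their median was -0.12 and in T cells -0.04. In the 43 and 70 myeloid cells, taken by 6 genes of monocytes, macrophages and cDC, 21 of 50 such genes were at least 1.5-fold higher, with a median of 0.52. There 658 of 3657 genes measured in the pDC passed that fold upward, with a median of 0.10. Whether the pDC differed from the myeloid cells in this was not tested.

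**Figure D3:**
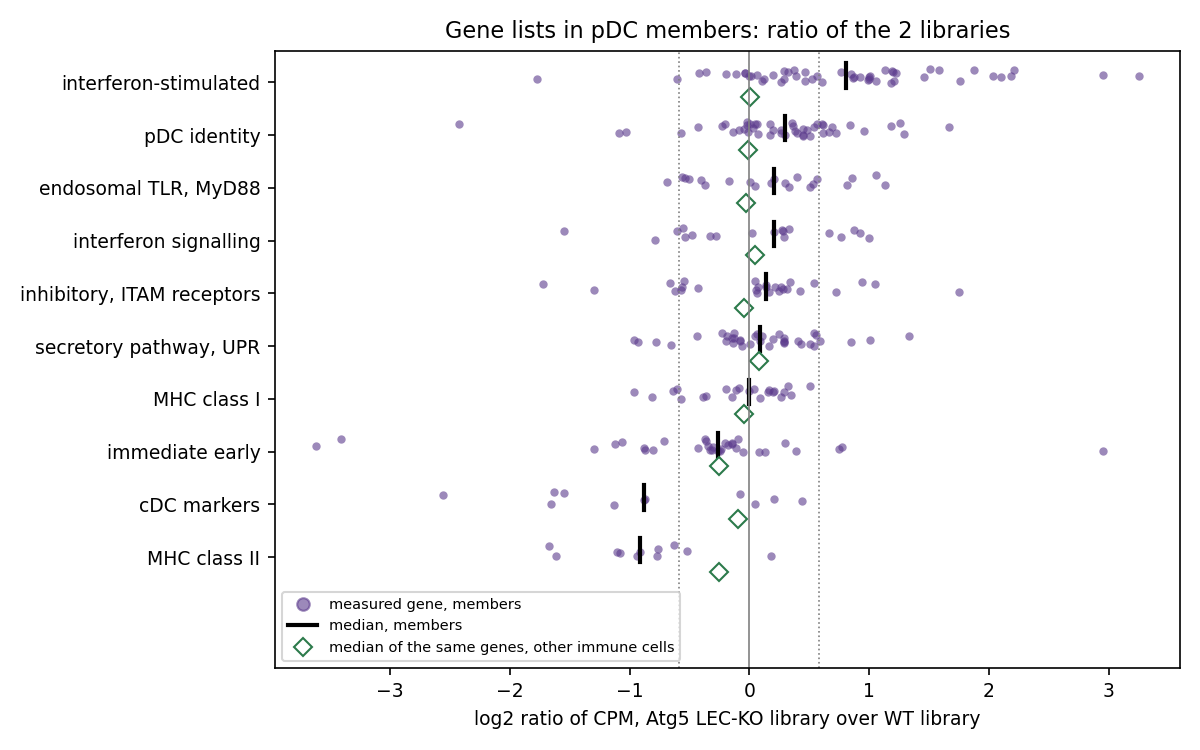
Each purple point is a gene of the named list with at least 20 UMIs in the pDC, placed at its log2 ratio of Atg5 LEC-KO over WT. Black bars are list medians in the pDC, green diamonds medians of the same genes in other immune cells, and dotted lines mark 1.5-fold. The interferon-stimulated median lies at 0.81 against 0.01 in other immune cells, and the MHC class II median at -0.91 against -0.25.

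The genes behind this were seen in several cells each. Slfn5, a Schlafen family member, held 27 UMIs in 11 WT cells and 95 UMIs in 13 Atg5 LEC-KO cells, a ratio of 4.30 (2.78-6.85), with a log2 ratio of -0.10 in other immune cells. Most of its Atg5 LEC-KO UMIs lay in a few cells, with 22, 16, 13 and 9 UMIs in the highest, against at most 6 in a WT cell. Sp110, a nuclear body protein, held 36 UMIs in 18 cells and 84 UMIs in 24 cells, a ratio of 2.85 (1.91-4.33). Lgals3bp, a secreted galectin ligand, held 11 and 33 UMIs in 7 and 19 cells. Helz2, a helicase that coactivates nuclear receptors, held 3 and 23 UMIs in 3 and 14 cells, a ratio of 9.36 with a wide interval (2.83-48.7). Lgals9, the galectin of the checkpoint receptor TIM-3, held 7 and 26 UMIs, a ratio of 4.53 (1.92-12.4). For these 5 genes no cell held over 20% of the UMIs.

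Genes of the nucleic acid-sensing HIN family were among those that lay higher. Ifi203 held 61 UMIs in 16 WT cells and 117 in 19 Atg5 LEC-KO cells, a ratio of 2.34 (1.70-3.25), and Mndal 98 and 167 UMIs in 23 cells each, a ratio of 2.08 (1.61-2.70). Ifi207 held 11 and 37 UMIs, 25% of them in a single cell. Ifi209 held 22 and 36 UMIs, a ratio of 2.00 (1.14-3.57), which was 1.72 (0.975-3.09) with at least 6 markers and -0.10 on the log2 scale in female cells alone. These genes are close copies, and the annotated Mndal (chr1:173849126-173942491) overlaps Ifi203 (chr1:173920407-173942672) on the same strand of GRCm38, so that their counts are uncertain against each other. Oasl2, an oligoadenylate synthetase-like antiviral gene, held 5 and 39 UMIs and Ifi44 10 and 38, and 36.4% and 27.1% of their UMIs came from a single cell. Eif2ak2, the double-stranded RNA kinase PKR, held 9 and 25 UMIs, 32.4% of them in a single cell.

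Genes of the interferon receptor and its signalling went both ways. Of 19 measured, 11 lay higher and 8 lower, with a median of 0.21. Of these, 5 were at least 1.5-fold higher and 3 at least 1.5-fold lower, against 15.6% and 17.0% of all genes. With at least 6 markers 2 of 16 were at least 1.5-fold higher and 5 lower, against 519 and 498 of all 3326 genes. Their median was then 0.03, and the median was -0.13 in male and -0.12 in female cells alone. Irf7, the master regulator of type I interferon, held 35 UMIs in 17 WT cells and 63 UMIs in 16 Atg5 LEC-KO cells, a ratio of 2.20 (1.43-3.42). Stat2, a subunit of the interferon-activated transcription factor complex, held 43 and 60 UMIs, a ratio of 1.70 (1.13-2.58), which was 1.46 (0.968-2.24) with at least 6 markers. Irf1 held 72 and 112 UMIs, a ratio of 1.90 (1.40-2.59). Irf9, the DNA-binding subunit of the same complex, held 35 and 35 UMIs, and Ifnar1 and Ifnar2, the interferon receptor, had log2 ratios of 0.02 and 0.27.

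The most abundant members of the list differed less. B2m, the MHC class I light chain, lay at 5302 and 6646 CPM, a log2 ratio of 0.33. Ly6e, a viral entry regulator, lay at 2841 and 2766 CPM, Bst2 at 912 and 951 CPM, and Ly6a, the surface protein Sca-1, at 1273 and 1833 CPM, with log2 ratios of -0.04, 0.06 and 0.53. Ifitm2, which blocks virus entry, went the other way, with 50 UMIs in 7 WT cells and 12 in 3 Atg5 LEC-KO cells, and 3 and 0 UMIs in the cells with at least 6 markers. Cxcl9, an interferon-gamma-induced chemokine, held 6 and 38 UMIs with 59.1% in a single cell, and was also higher in other immune cells, by 2.84 on the log2 scale.

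**Figure D4:**
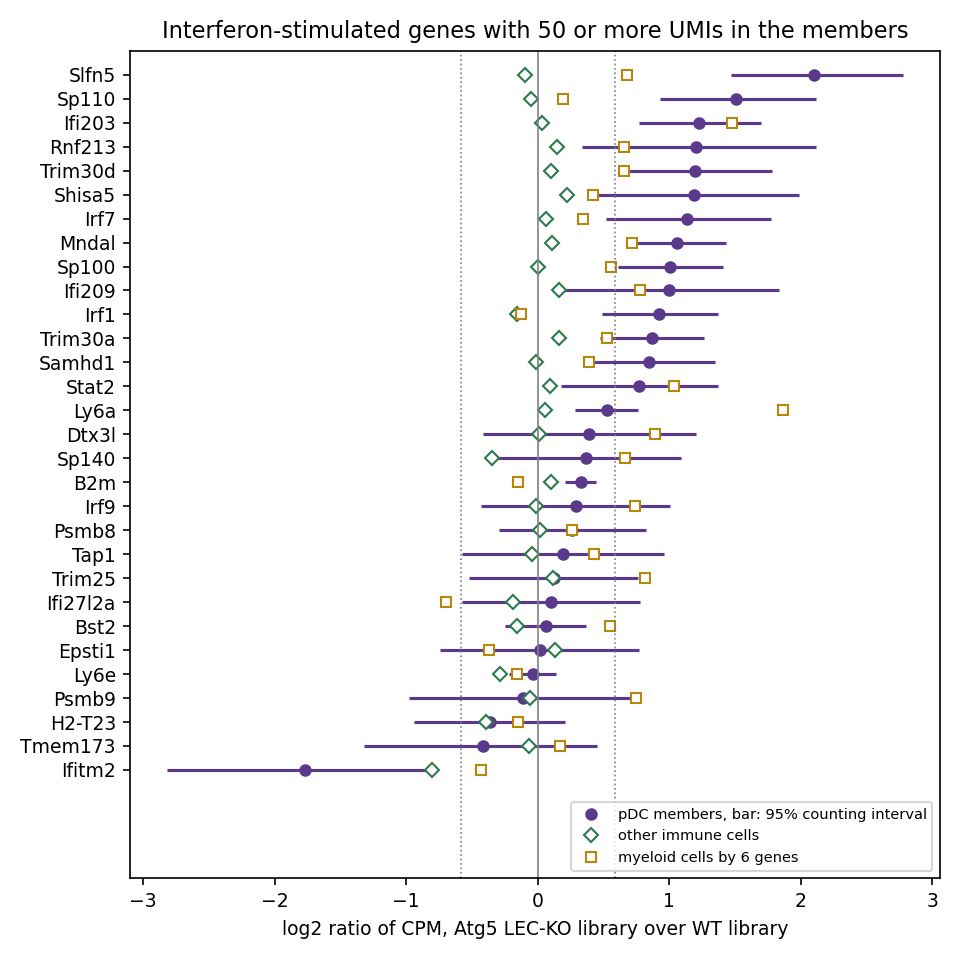
Here 30 interferon-stimulated genes with at least 50 UMIs in the chosen cells are placed at their log2 ratio of Atg5 LEC-KO over WT, with 95% counting intervals (purple), beside the same ratio in other immune cells (green diamonds) and in myeloid cells (yellow squares). From Slfn5 down to Stat2 the pDC lie at or beyond the dotted 1.5-fold line, while the diamonds of these genes stay within it. In other immune cells only 27 of 3883 genes measured in the pDC passed that line upward.

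The interferon-stimulated difference was of similar size without the cells under 6 markers. With the 22 and 24 cells of at least 6 markers, 37 of 45 measured interferon-stimulated genes lay higher, 25 were at least 1.5-fold higher against 15.6% of all genes, and the median was 0.77. Without the 3 cells of each library that ranked highest for the list, 24 of 46 were at least 1.5-fold higher and the median was 0.67. Sex was unequal between the libraries, and the size moved with it: among male cells (19 and 11) the median was 0.30 with 10 of 32 genes at least 1.5-fold higher, against 19.6% of all genes measured there. Among female cells (4 and 12) it was 0.58 with 17 of 34, against 27.6%. Slfn5 was close to equal in male cells alone, with a log2 ratio of -0.02, and in female cells alone Stat2 and Irf1 lay lower, at -0.62 and -0.12. The part of sex in the list's difference was not tested.

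Single cells showed where the signal lay. Leaving out the list's 4 most abundant genes (B2m, Ly6e, Ly6a and Bst2), interferon-stimulated UMIs ranged from 3.26 to 17.4 per 1000 UMIs with a median of 6.74 in the WT library, and from 4.35 to 49.1 with a median of 9.81 in the Atg5 LEC-KO library. The medians lay closer within each sex, at 6.74 and 7.03 in male cells and 10.2 and 11.0 in female cells. With at least 6 markers they were 7.132 and 9.355 in all cells, 6.99 and 7.02 in male cells, and 10.2 and 9.87 in female cells. The 2 libraries overlapped for most cells, and 5 Atg5 LEC-KO cells lay above the highest WT cell. All 5 carried at least 6 pDC markers, and their number was 5 again after each cell was thinned to 2500 UMIs. Of the UMIs of the list without those 4 genes, the 3 cells with most of them held 29.4% in the Atg5 LEC-KO library and 22.6% in the WT library. By sex, 3 of the 12 female cells lay above the highest of the 4 female WT cells, and 2 of the 11 male cells above the highest of the 19 male WT cells. After thinning these counts were 3 and 4.

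**Figure D5:**
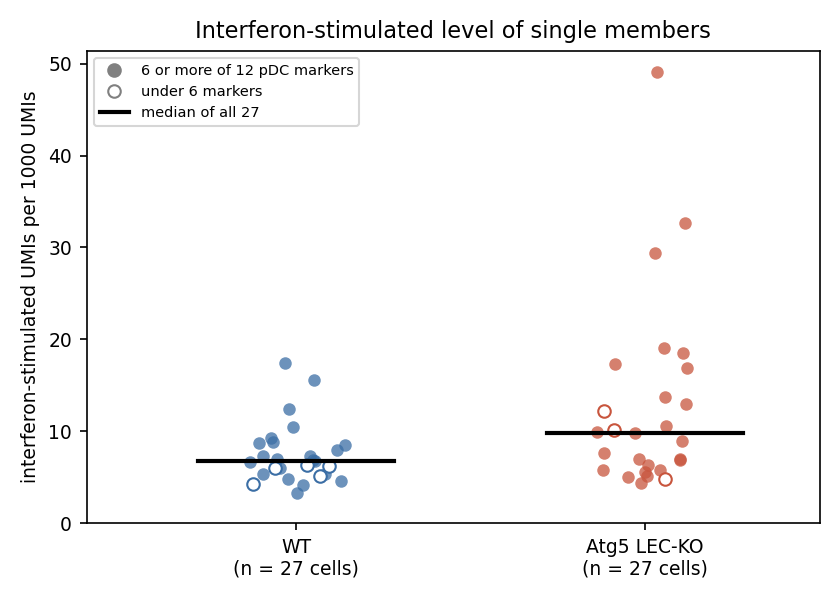
Each point is a chosen cell, placed at its interferon-stimulated UMIs per 1000 UMIs without the list's 4 most abundant genes, with open points for cells under 6 of the 12 pDC markers and black bars for the median of all 27. The WT cells reach 17.4 and 5 Atg5 LEC-KO cells lie above that, up to 49.1.

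Promoters of interferon-stimulated genes that differed are shown because several hold the letters of the interferon-stimulated response element, the site of the complex that contains STAT2 and IRF9 and of other IRF proteins. The letters searched were GAAA, any 2 bases and GAAA again on both strands, in capitals below, in the same RefSeq windows of GRCm38.p6.
Slfn5, chr11:82951852-82952151, + strand: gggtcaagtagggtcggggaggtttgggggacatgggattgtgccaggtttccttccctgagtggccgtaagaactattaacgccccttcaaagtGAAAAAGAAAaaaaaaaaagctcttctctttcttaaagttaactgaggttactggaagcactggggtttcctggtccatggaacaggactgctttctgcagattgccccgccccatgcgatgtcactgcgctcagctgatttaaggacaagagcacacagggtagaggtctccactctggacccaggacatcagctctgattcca
Ifi203, chr1:173942443-173942742, - strand: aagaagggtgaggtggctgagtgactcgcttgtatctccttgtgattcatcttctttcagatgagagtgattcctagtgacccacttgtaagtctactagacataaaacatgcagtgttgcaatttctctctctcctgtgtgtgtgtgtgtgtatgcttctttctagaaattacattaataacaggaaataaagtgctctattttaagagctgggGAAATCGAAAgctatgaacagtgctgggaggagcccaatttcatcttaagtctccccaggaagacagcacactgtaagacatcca
Mndal, chr1:173880138-173880437, - strand: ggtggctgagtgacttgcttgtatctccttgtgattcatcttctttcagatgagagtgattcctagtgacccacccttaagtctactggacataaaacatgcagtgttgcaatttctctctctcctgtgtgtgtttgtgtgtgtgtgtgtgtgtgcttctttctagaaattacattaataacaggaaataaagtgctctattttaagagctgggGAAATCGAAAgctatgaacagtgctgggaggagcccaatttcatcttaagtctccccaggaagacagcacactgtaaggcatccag
Lgals9, chr11:78984875-78985174, - strand: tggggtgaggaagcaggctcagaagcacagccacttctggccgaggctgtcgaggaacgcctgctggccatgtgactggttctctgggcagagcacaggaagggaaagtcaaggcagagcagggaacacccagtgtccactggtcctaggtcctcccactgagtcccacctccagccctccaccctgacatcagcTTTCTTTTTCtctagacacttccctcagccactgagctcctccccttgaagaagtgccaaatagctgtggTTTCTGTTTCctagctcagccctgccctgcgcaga
Ifi203 and Mndal share the match GAAATCGAAA, 35 and 36 bases before the start, and Slfn5 holds GAAAAAGAAA 155 bases before it. RefSeq gives a second start for both Ifi203 and Mndal, and the window of the other Ifi203 start (chr1:173942623-173942922) had no match, while that of Mndal (chr1:173879909-173880208) had 1 match 54 bases before the start. Lgals9 holds a pair of matches on the opposite strand, TTTCTTTTTC and TTTCTGTTTC. The letters occurred in 18 of the 41 measured interferon-stimulated genes with an entry (43.9%) and in 12 of the 23 that were at least 1.5-fold higher (52.2%), against 3.99% of 27025 genes. Since the list was assembled from known interferon-stimulated genes, these shares describe it and say nothing of binding or of the difference between the libraries. Irf7 had no match in its window.

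MHC class II genes were lower in the Atg5 LEC-KO pDC when all chosen cells were summed. The gap was smaller without the 8 cells with fewer than 6 of the 12 pDC markers. Cd74, the invariant chain, held 1877 UMIs in the WT cells and 991 in the others, a log2 ratio of -0.63. H2-Aa, H2-Ab1 and H2-Eb1, the chains of the antigen-presenting molecules, had log2 ratios of -0.77, -0.91 and -1.08, and H2-DMa, which loads their peptides, held 78 and 20 UMIs and had -1.68. Of 11 measured class II genes 9 were at least 1.5-fold lower, against 17.0% of all genes, and the median was -0.91, with -0.25 in other immune cells. With the cells of at least 6 markers, 2 of 11 were at least 1.5-fold lower, against 498 of all 3326 genes. The class II median was then -0.35. The list's total then lay at 15978 and 13018 CPM, a ratio of 0.815 (0.768-0.864), against 26869 and 16360 CPM in all chosen cells. In female cells alone (4 and 12) the median was 0.10, with log2 ratios of 0.03 for Cd74, 0.17 for H2-Ab1 and 0.68 for H2-Eb1, and in male cells it was -1.02.

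Markers of cDC moved alongside. Of 11 measured cDC markers, 7 were at least 1.5-fold lower, against 17.0% of all genes, with a median of -0.88. With the cells of at least 6 markers 4 of 9 were at least 1.5-fold lower, against 498 of all 3326 genes, and the median was -0.25. Their summed UMIs were 566 in the WT cells and 287 in the others. Cd209a, a cDC lectin, held 99 and 37 UMIs in all chosen cells, and 40 and 35 in those with at least 6 markers. Flt3 held 103 and 46 UMIs, and still 74 and 46 with at least 6 markers, a ratio of 0.622 (0.421-0.911). Zbtb46, the transcription factor that defines cDC, held 12 UMIs in 6 WT cells and 4 in 3 Atg5 LEC-KO cells, under the minimum of 20.

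Single genes that were lowest relative to WT included Pim1, a survival kinase, with 239 UMIs in 19 WT cells and 55 in 14 Atg5 LEC-KO cells, a ratio of 0.281 (0.206-0.378). It was as low in the cells with at least 6 markers, at 0.282, and its log2 ratio was -0.51 in myeloid cells. Vim, the vimentin filament, held 200 and 54 UMIs, and Lgals3, galectin-3, held 62 and 14. In female cells alone Vim lay higher, at 2.06 on the log2 scale. With at least 6 markers their ratios were 0.421 (0.270-0.645) and 0.455 (0.192-1.0). Rgl1, a Ral exchange factor, held 30 and 3 UMIs, and Mapk6, an atypical MAP kinase, 21 and 2. Akna, Sf3b3, Vkorc1l1, Prmt1 and Rnasek completed the 12 lowest with H2-DMa and H2-Eb1. Among the 12 highest, the Fc receptor-like gene Fcrla held 56 and 112 UMIs, a ratio of 2.44 (1.76-3.43), and Klk1 had a ratio of 3.19 (1.94-5.40). C130026I21Rik, Tm9sf4, Adipor1, Plaa and Cops6 completed that list.

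pDC identity genes differed little between the libraries once marker-poor cells were left out. In all chosen cells 34 of 47 lay higher and 12 were at least 1.5-fold higher, against 15.6% of all genes, with a median of 0.30. With at least 6 markers 26 of 47 lay higher and 6 were at least 1.5-fold higher, again against 15.6%, and the median was 0.09. Siglech had a ratio of 1.20 in all chosen cells and 0.982 (0.896-1.08) in those with at least 6 markers. The ratio of Klra17 was 1.65, and 1.51 (1.13-2.03) with at least 6 markers, and that of Cox6a2 was 1.53, and 1.25 (0.978-1.61). Cd209d, a C-type lectin, was the lowest of the list, with 72 and 11 UMIs, and 36 and 11 in cells with at least 6 markers, a ratio of 0.306 (0.140-0.614). Dntt had a ratio of 2.40 (1.47-4.0), and 1.96 (1.20-3.28) with at least 6 markers.

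Cytokine, chemokine and costimulation genes were mostly too few in UMIs to compare, with 8 of 35 measured. Of these 2 were at least 1.5-fold higher and 4 lower, against 15.6% and 17.0% of all genes, with a median of -0.85. With at least 6 markers only 4 were measured, too few for a median. Cd83, a maturation marker of dendritic cells, held 62 and 14 UMIs in all chosen cells but 11 and 6 in those with at least 6 markers, and Icosl, the ligand of the costimulator ICOS, 20 and 6 but 8 and 6. Genes that mark transitional DC, cells between pDC and cDC, had a median of -0.51 with 4 of 8 at least 1.5-fold lower, and -0.37 with 2 of 7 with at least 6 markers. Among them Klf4, a transcription factor of the myeloid line, held 126 and 56 UMIs, a ratio of 0.543 (0.389-0.749), and 0.58 (0.383-0.869) with at least 6 markers, and Ms4a6c, a membrane protein of monocytes, 75 and 31, with 31 and 24. In female cells alone both lay higher, at 3.44 and 1.25 on the log2 scale.

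The medians of the other groups lay closer to 0. Endosomal sensing genes had a median of 0.20, and 0.01 with at least 6 markers. Tlr7 had a ratio of 1.81 (1.12-2.96), which was 1.53 (0.948-2.52) with at least 6 markers, and -0.12 on the log2 scale in female cells alone. Unc93b1 had a ratio of 1.15 (0.916-1.45) and Myd88, with 11 and 13 UMIs, 1.44 (0.596-3.56). pDC transcription factors had a median of -0.01, with 3 of 19 at least 1.5-fold higher and 6 lower, against 15.6% and 17.0% of all genes. With at least 6 markers their median was 0.09, with 3 of 16 higher and 4 lower by that fold, against 519 and 498 of all 3326 genes. Homing receptors had a median of 0.17, and 0.19 with at least 6 markers. Among them Gpr183, an oxysterol receptor that positions cells in the node, held 59 and 15 UMIs, a ratio of 0.310 (0.164-0.554), and was also lower in myeloid cells, at -1.95 on the log2 scale. Inhibitory and ITAM receptors had a median of 0.14, MHC class I genes 0.00, the secretory pathway 0.09 and core autophagy genes -0.07. With at least 6 markers these medians were -0.06, -0.14, 0.12 and 0.03, in the same order. Atg5 itself had a ratio of 1.18 (0.659-2.09) in the pDC.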

How the data were processed

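The deposited files hold whole-number counts of UMIs per barcode and gene for every barcode, per the file headers made by the authors with the BD Rhapsody WTA Analysis Pipeline 1.11 on mm10, with intronic reads kept; the counts after the pipeline's error correction were used, without normalization. Library totals were 23649554 UMIs in 119938 barcodes (WT) and 23089918 UMIs in 111135 barcodes (Atg5 LEC-KO).

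UMIs were summed over the chosen cells and scaled to CPM without mitochondrial genes. CPM carry exact Poisson, ratios exact conditional binomial and shares Clopper-Pearson 95% intervals, which treat UMIs as independent. A count of 0 was set to 3 counts in a ratio between libraries, and counts under 3 in the compared cells were set to 3 to rank and count genes over other cells. Genes needed 20 UMIs over both libraries. Lists needed 5 such genes to be given a median.

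Cells, lists and the genes named were chosen with earlier results of these data known. The genes named were the 4 given markers, 14 set genes of interferon sensing and pDC identity, the 15 most restricted to the pDC, the 12 highest and 12 lowest by the interval bound nearest 1 (leaving out genes with over 20% of UMIs in 1 cell, and mitochondrial, immunoglobulin, ribosomal and sex-linked genes), and in each list the 4 most abundant and the 3 farthest from 1 in each direction; other genes were named after their values had been seen. Doublets were called with Scrublet in scanpy 1.11.5 at an expected rate of 6% and not removed. Some genes counted in the lists are not reported here by name. The calculations were tested on simulated data. Gene positions are from GENCODE M21 on GRCm38 (mm10), and promoters from RefSeq, GRCm38.p6.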

Additional observations from a re-analysis of the deposited data

How the results depend on the processing

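No paired analysis was possible because each genotype had 1 library. Of 330 alternative values of the shares, counts and medians, 303 stayed within the stated bounds. The settings of at least 6 pDC markers, of leaving out the top 3 cells or the top cell of each gene, and of thinning to 2500 UMIs were chosen after seeing the data. In male cells the WT share was 1.62%, 2535 genes were measured and 10 interferon-stimulated genes passed 1.5-fold upward, against 28. In female cells, of which the WT library held 4, the Atg5 LEC-KO share was 1.31%, 1201 genes were measured, 332 and 253 passed 1.5-fold upward and downward, with 17 interferon-stimulated genes upward and 0 MHC class II genes downward. Also in female cells the class II median was 0.10 and the cDC marker median 0.38, and log2 ratios changed sign for Cd74 (0.030), H2-Ab1 (0.17), H2-Eb1 (0.68), Vim (2.06), Klf4 (3.44), Ms4a6c (1.25), Ifi209 (-0.10), Irf1 (-0.12), Stat2 (-0.62), Tlr7 (-0.12) and Eldr (-0.56), as did Slfn5 in male cells (-0.017). The cause was not tested.

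With at least 6 markers 2 class II genes passed downward, against 9, and the cDC marker median was -0.25. With each cell at equal weight 4 class II genes passed. With at least 50 UMIs per gene 1589 genes were measured, 163 and 158 passed, 15 of them interferon-stimulated, and the cDC median was -0.075. With at least 10 UMIs per gene 5987 were measured, and 1182 and 1254 passed. At 2-fold 237 and 292 genes passed, 4 of them class II genes downward. Against myeloid cells 51 genes, and against T cells 172, were at least 10-fold higher in pDC, against 86. The interferon-stimulated median lay above 0 in every setting run, at 0.30 in male cells at the lowest. At 27 cells per library, genes under 20 UMIs, Tlr9 among them, could not be compared.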

Other observations

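The chemokine Ccl4 was among the genes that set these pDC apart without belonging to the identity list. It held 335 UMIs in 21 WT cells and 311 in 21 Atg5 LEC-KO cells, and was 31.1-fold and 31.2-fold above other immune cells. Single cells held 0 to 54 and 0 to 30 UMIs. Ccl3, its neighbour in the same chemokine cluster, held 42 and 24 UMIs. Lag3, a checkpoint receptor for MHC class II that pDC can carry, held 33 and 12 UMIs and was 41.2-fold and 32.8-fold above other immune cells. Kdr, the VEGF receptor best known from endothelium, held 32 UMIs in 8 WT cells and 61 in 12 Atg5 LEC-KO cells, with 21.5% of them in a single cell. Kdr is one of 12 blood endothelial markers, which together held 104 and 120 UMIs in 23 cells of each library, or 494 and 696 CPM, nearly all of them from Kdr, Cdh5 and Pecam1, while Cldn5 and Emcn had 0 UMIs. The rule that chose the cells required 0 UMIs of Egfl7 and Prox1, so low endothelial markers were partly fixed by it. The part of endothelial RNA in the Kdr count was not tested.

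Immediate early and stress genes, which cell handling can induce, were lower in the Atg5 LEC-KO pDC, with 26 of 33 lower, a median log2 ratio of -0.27, and 9 genes at least 1.5-fold lower, against 17.0% of all genes. The same genes had a median of -0.25 in other immune cells, -0.17 in B cells, -0.26 in T cells and -0.40 in myeloid cells, so the difference was not limited to pDC. With at least 6 pDC markers 16 of 27 lay lower, and the median was -0.17. Of these 27 genes 4 were at least 1.5-fold lower, against 498 of all 3326 genes. Fos held 662 and 403 UMIs in all chosen cells, and 372 and 388 in those with at least 6 markers. Atf3 held 60 UMIs in 10 WT cells and 4 UMIs in 4 Atg5 LEC-KO cells, with 46.9% of all in a single cell, and Egr3 held 39 UMIs, all in 1 WT cell.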
